A study of Mus musculus with 102 samples.

Results

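Clustered active enhancers are stretches of the mouse genome where several enhancers with the activity mark H3K27ac lie close together. They were taken from the deposited list of active enhancers of mouse embryonic stem (ES) cells, which holds 12492 regions out of 67697 in the table of all regions. Neighbouring regions with a gap of 12500 bp or less were joined, and every region in a joined group of 4 or more was kept. This gave 2211 clustered regions, 17.7% of the active list, in 426 groups. The other 10281 active regions, of which 5933 stood alone and the rest lay in groups of 2 or 3, were the comparison. The rule used positions only, so neither H3K27ac nor any factor or R1 mark chose the members within the list.

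The data are chromatin immunoprecipitation with sequencing (ChIP-seq). The regions, H3K27ac and 17 chromatin, Mediator and splicing factors were measured in ES cells of strain 129/Ola, for which the labels give no genotype; 45 libraries came from these cells. H3K4me1, H3K4me2 and H3K4me3 were compared between R1 ES cells (strain 129SV) with the MLL3/4 double catalytic dead genotype, in which the methyltransferases MLL3 and MLL4 are catalytically inactive, and wild-type R1 cells, with 2 libraries per mark and line. The 129/Ola cells were grown on feeders and then passaged without them before fixation, while the R1 cells were grown on mouse embryonic fibroblast feeders in serum-free medium with LIF. Regions and R1 marks therefore come from different lines and cultures, and the labels do not say whether replicates are separate cultures or how many clones stand for the catalytic-dead line. The deposited tables give 1 value per region and factor, or per peak and line. The spread between libraries and the depth are unknown, so no difference below has a test. Intervals in brackets are 95% intervals from the number of regions or peaks; they treat neighbours as independent, which they are not, and leave out the error between libraries.

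Enhancers are DNA elements that raise the transcription of genes at a distance. MLL3 and MLL4 place H3K4me1 on them, and acetylation of H3K27 marks those that are active. Stretches of closely spaced active enhancers with much Mediator and cohesin, often called super-enhancers when ranked by their total signal, are known in ES cells near genes of cell identity. The groups here were joined by distance and not ranked by signal, so they are not super-enhancers by that definition.

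Most groups were small. Of the 426 groups, 212 held 4 regions, 95 held 5, 49 held 6, 29 held 7 and 17 held 8, and 16 held 10 or more. The median group spanned 26509 bp (lowest 7692, highest 120780), of which its regions covered a median of 29.8%. Gaps inside groups ran from 1001 to 12481 bp with a median of 3923 bp, and 35.4% of them were 2.5 kb or less. The joining distance did not fall at a break in spacing: 513 neighbouring pairs of active regions had a gap of 10 to 12.5 kb and 452 had one of 12.5 to 15 kb. Chromosomes 4 and 11 held 52 groups each, and the clustered share of active regions ranged from 4.20% on chromosome 3 to 24.1% on chromosome 11 among the 19 autosomes.

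The group with most regions was at chr17:47585231-47706010 (build mm9, as for all positions here), with 15 regions. Its regions had H3K27ac log2 enrichments from 1.24 to 2.84 and between 1 and 11 factors. Every one of the 17 factors was listed at some region of the group, and none at all 15. The next largest groups lay at chr9:21554598-21647333 and chr5:136358775-136446402 with 14 regions each, at chr9:21192332-21277542 with 13 and at chr6:125353709-125437961 with 12. Within the group of 14 on chromosome 9 the number of factors per region ranged from 2 to 14, and its region with the highest H3K27ac, 2.99, was also its region with fewest factors, SRSF2 and SUR2. The 12 regions on chromosome 6 had few factors, 3.33 ± 2.57 per region (SD over regions), against 7.86 ± 3.42 in that group on chromosome 9.

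**Figure D1:**
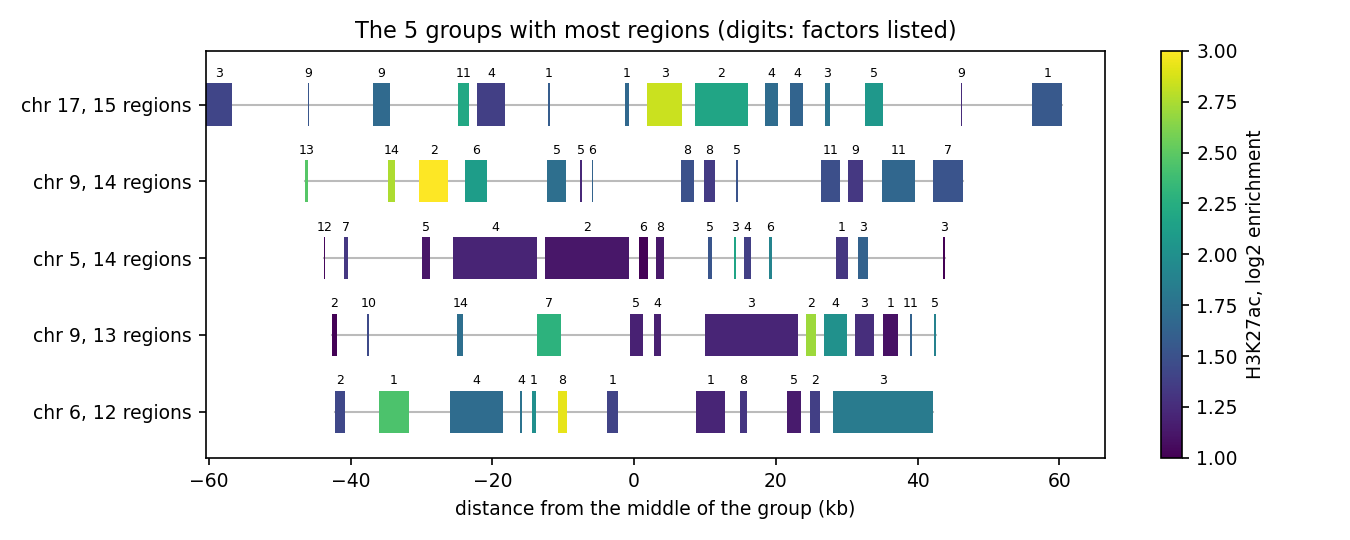
The 5 groups with most regions, drawn by distance in kb from the middle of each group. Bars are active regions to scale, their colour is the H3K27ac log2 enrichment, and the digit above each is the number of factors listed. Wide and narrow regions lie side by side in every row, and in the group of 14 on chromosome 9 the brightest bar carries 2 factors.

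Clustered regions had slightly more H3K27ac than other active regions. The median log2 enrichment was 1.42 (1.40 to 1.44) in clustered regions and 1.33 (1.32 to 1.34) in the others, a difference of 0.09. It was higher in clustered regions on 19 of 19 autosomes. The quartiles overlapped widely, 1.21 to 1.76 in clustered and 1.16 to 1.61 in other regions. An enrichment of 2 or more was found at 15.2% (13.8 to 16.8) of clustered and 9.05% (8.50 to 9.62) of other regions. The median was 1.30 for regions alone, 1.37 in groups of 2, 1.39 in groups of 3, 1.42 in groups of 4, 1.37 in groups of 5, 1.40 in groups of 6, 1.44 in groups of 7 and 1.48 in groups of 8 or more, so much of the difference lay between single regions and any group. Against regions in groups of 2 or 3 alone the difference was 0.05, and with a joining gap of 5000 bp it was 0.14. All regions of the list had passed an H3K27ac log2 enrichment of 1, which bounds both sets from below.

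Clustered regions were also wider. The median width was 1126 bp (1048 to 1192) in clustered regions and 577 bp (557 to 599) in other active regions. It was larger in clustered regions on 18 of 19 autosomes. Gaps were measured between the edges of regions, and whether the joining rule itself favours wide regions was not tested. With the others weighted to the widths of the clustered regions, the H3K27ac difference was 0.08. Here and below, such weights matched the shares of 5 width classes and not the widths inside a class.

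**Figure D2:**
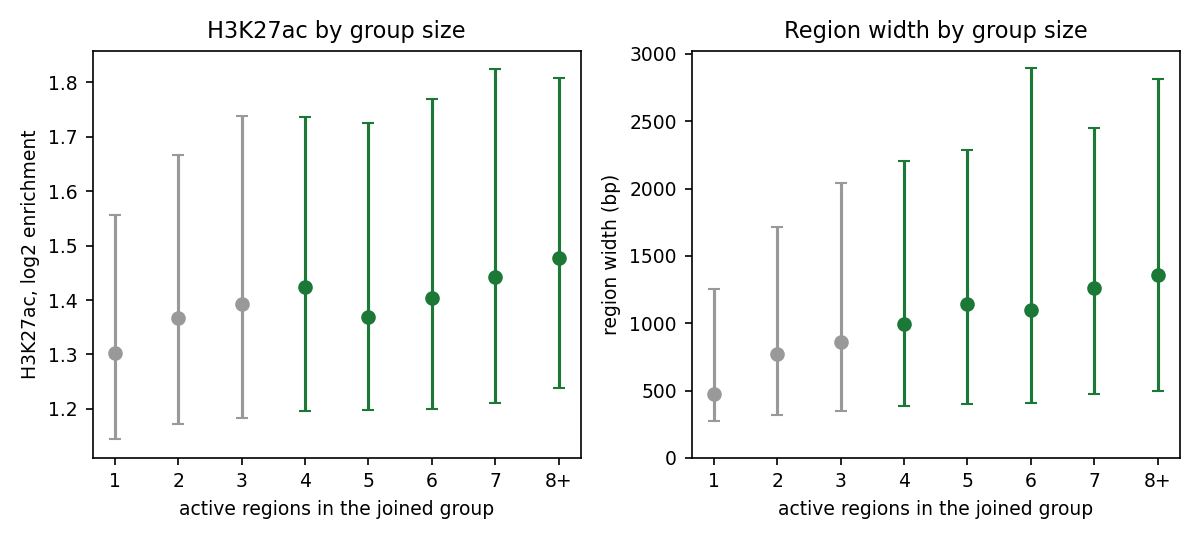
H3K27ac (log2 enrichment, left) and region width (bp, right) by the number of active regions in the joined group; points are medians and bars quartiles, green for clustered regions and grey for other active regions. The H3K27ac median goes from 1.30 for single regions to 1.48 in groups of 8 or more, while the quartiles of every size overlap.

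H3K27ac varied more within groups than between them. The intraclass correlation, the part of the variance that lies between groups, was 0.14 in clustered groups and 0.17 in groups of 2 or 3. The median range within a clustered group was 0.81 log2 units. The 1359 inner regions had a median of 1.44 and the 852 regions at the edges of groups 1.39. The highest mean H3K27ac, 2.51 ± 0.55 (SD over 7 regions), was at chr7:3194587-3215254. Its regions were short, 209 to 949 bp, and covered 13.9% of the span. It was followed by chr8:37599700-37623486 with 2.39 ± 0.83 over 4 regions and chr17:45591100-45613849 with 2.36 ± 0.25 over 4 regions. The group on chromosome 8 held the clustered region with the highest H3K27ac, chr8:37610218-37610607, at 3.50. This region had 3 factors listed, PHRF1, RUVBL1 and RUVBL2. The lowest value, 1.0, was at chr19:9108303-9108561, which also had 3 factors.

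Clustered regions carried as many factors as the others. A factor counts as present where the table lists it, which needs a log2 enrichment of 0.58 or more, a fold of 1.5. Every region of the active list has at least 1 of 13 names, CHD1 and 12 of the 17 factors, so the list itself raises the shares of these in both sets; BAF155, RUVBL1, RUVBL2, SAP18 and SSRP1 are not among them. The mean number of the 17 factors per region was 5.43 ± 3.08 (SD) in clustered and 5.41 ± 3.09 in other active regions. At least 10 factors were listed at 11.3% of clustered and 11.3% of other regions. The mean was higher in clustered regions on 6 of 19 autosomes. Wider regions had fewer factors: Spearman's rho of width with the number of factors was -0.26 over the 2211 clustered regions, which share libraries and peak calls, and -0.25 over the others. Against other regions weighted to the same width classes, which averaged 5.10 factors, clustered regions had 0.34 more. With a factor counted only at a log2 enrichment of 1 or more, clustered regions had 1.77 factors and the others 2.09.

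The makeup of the factors differed more than their number. Of the 17 factors, 7 had a higher share in clustered regions and 10 a lower one. For 4 of the 17, BAF155, MED1, SRSF1 and SUR2, the share in other regions lay inside the interval of the clustered share.

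The histone chaperone FACT showed the widest gap. SSRP1, a FACT subunit, was listed at 44.1% (42.0 to 46.2) of clustered and 37.2% of other active regions. Its share was 36.1% at single regions and 47.3% in groups of 6 or more. SSRP1 was measured in 1 library, all other factors in 2 or 3. PHRF1, a protein with a PHD and a RING finger, was listed at 43.7% (41.7 to 45.8) of clustered and 40.4% of other regions. PHRF1 and SSRP1 had the highest phi coefficient of the 136 factor pairs in clustered regions, 0.31, and 0.25 in other regions; the medians over all pairs were 0.11 and 0.12. PHRF1 was listed at 61.0% of the clustered regions with SSRP1, and SSRP1 at 61.5% of those with PHRF1. SAP18, a subunit of the Sin3 histone deacetylase complex that also binds splicing proteins, was at 41.5% (39.5 to 43.6) of clustered and 37.4% of other regions.

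SMC3 of cohesin and SNF2H of ISWI gave a smaller difference in the same direction. SMC3, a ring subunit of cohesin, was at 39.7% (37.7 to 41.8) of clustered and 36.5% of other regions. SNF2H, the ATPase of ISWI remodelers, was at 45.5% (43.5 to 47.6) of clustered and 42.8% of other regions. The SNF2H share was higher in clustered regions on 9 of 19 autosomes. Across the settings that kept the listing limit, its difference ran from 0.74 percentage points (groups of 3 or more regions) to 5.30 (weighted to width). The partner subunits of SNF2H went the other way. BAZ1A was at 23.4% (21.7 to 25.3) of clustered and 27.2% of other regions, and WSTF, the least frequent factor, at 8.37% (7.25 to 9.60) and 9.90%.

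The BAF remodeler was not more frequent in clusters. BRG1, its ATPase, was at 16.5% (15.0 to 18.1) of clustered and 21.0% of other regions, the largest deficit of any factor, and at 22.6% of single regions. BAF155, its core subunit, was at 19.4% (17.8 to 21.1) of clustered and 19.9% of other regions. The AAA ATPases of INO80 and related complexes were also less frequent: RUVBL1 was at 21.6% of clustered and 24.3% of other regions, and RUVBL2 at 28.0% and 30.5%. Against others weighted to the widths of the clustered regions these differences were -0.32 and -0.43 percentage points.

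Mediator, which links enhancers to RNA polymerase II, gave small differences. MED12 was less frequent in clusters, while for MED1 and SUR2 the share in other regions lay inside the interval of the clustered share. MED1 was at 31.0% (29.1 to 33.0) of clustered and 31.9% of other regions, MED12, of its kinase module, at 21.8% (20.1 to 23.6) and 24.6%, and SUR2, also known as MED23, at 33.0% (31.1 to 35.0) and 31.9%. Weighted to the same width classes, the others were below clustered regions for all 3, by 0.76 percentage points for MED1, 0.29 for MED12 and 2.74 for SUR2. Among splicing proteins, SRSF2 was the most frequent factor of all, at 64.5% (62.5 to 66.5) of clustered and 60.8% of other regions. SRSF1 was at 40.8% (38.7 to 42.9) of clustered and 42.5% of other regions, and PHF5A, an SF3b subunit, at 20.3% (18.6 to 22.0) and 22.4%.

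These shares move with region width. At clustered regions 14 of 17 factors had a smaller median width where listed than where not, for example 523 bp with and 1312.5 bp without BRG1, whereas SSRP1, SMC3 and SRSF2 had a larger one. Weighted to the same width classes, the others had lower shares than clustered regions for 13 of 17 factors. The SSRP1 difference was then 6.27 percentage points and that of SNF2H 5.30, while those of 6 factors, BAZ1A, MED1, MED12, PHF5A, SRSF1 and WSTF, changed sign and that of BRG1 was -0.40. The part of width in the differences was not tested further. Counted at a log2 enrichment of 1 or more, 1 of 17 factors had a higher share in clustered regions.

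**Figure D3:**
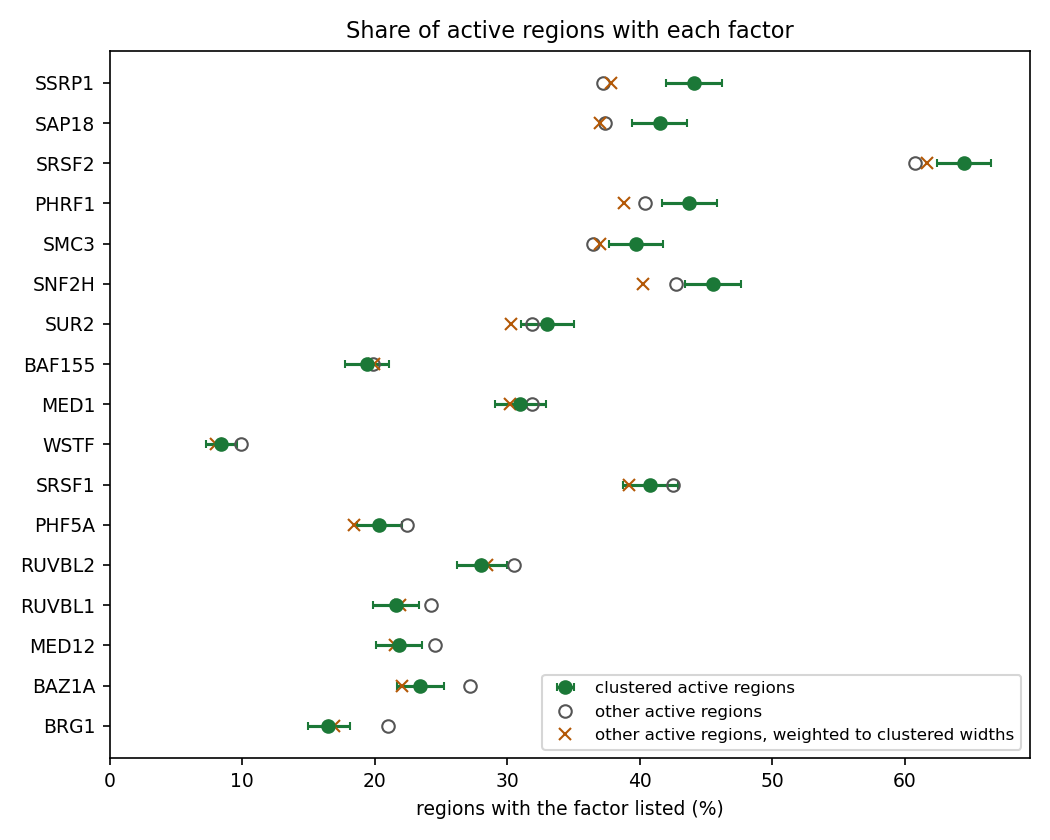
Share of active regions with each of the 17 factors, in percent: filled green points are clustered regions with exact 95% binomial intervals, open circles the other active regions, and crosses the others weighted to the widths of the clustered regions. SSRP1 stands farthest to the right of its open circle (44.1% and 37.2%), and BRG1 farthest to the left (16.5% and 21.0%), where the cross lies close to the clustered value.

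Where a factor was listed, its level was slightly lower in clustered regions for 16 of 17 factors. The median difference was -0.04 log2 units, and the largest, -0.05, was that of SRSF2, with medians of 0.84 in clustered and 0.89 in other regions. WSTF was the exception, with a median of 1.24 (1.14 to 1.32) in clustered and 1.17 in other regions; the interval holds the other value. With the others weighted to clustered widths, 5 of 17 factors were lower. Values below the listing limit are not given, so these medians describe the listed sites only.

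Regions of a group did not share one set of factors. The median group had 14 of the 17 factors at some region, and 17 groups had all 17. No factor was common to every region in 298 of 426 groups. SRSF2 was present in some region of 420 groups and in every region of 66, SNF2H in every region of 24 and PHRF1 in every region of 20. The intraclass correlation of the number of factors was 0.081 in clustered groups and 0.082 in groups of 2 or 3. For single factors the correlation of listing within groups was at most 0.10, for SSRP1.

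The 3 groups with most factors per region spanned less than the median group. At chr2:27312852-27322478, a span of 9627 bp, 4 regions had 11.25 ± 2.75 factors, and 6 factors were present at all 4: PHF5A, PHRF1, SAP18, SNF2H, SRSF1 and SUR2. At chr17:24164347-24186425, 4 regions had 10.5 ± 3.70 factors, and at chr11:117880075-117902385, 5 regions had 9.60 ± 1.14. The fewest were at chr15:98800326-98829604, where 5 regions had 1.40 ± 1.14 factors with a mean H3K27ac of 1.58, followed by chr5:123803134-123841346 with 1.75 ± 0.96 and chr17:37105281-37129158 with 1.80 ± 1.30. In the first of these the regions covered 63.5% of the span, so it combined wide regions with few factors. The most factors in a single clustered region, 15, were reached by 4 regions, among them the 209 bp region chr17:28341758-28341966. None of the 17 factors was listed at 11 clustered regions. As every region of the active list has CHD1 or some of the 17, these regions have CHD1, which was not counted here. Among these the highest H3K27ac log2 enrichment was 2.69, at chr12:111740984-111745618.

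Other kinds of region lay between the clustered ones. Poised enhancers, which have H3K4me1 but fall under the H3K27ac limit, lay inside the span of 39.7% of groups, at 0.191 per 10 kb of span, and inside groups of 2 or 3 at 0.185 per 10 kb. Regions with both H3K4me1 and H3K4me3, a pair of marks found at promoters, lay inside 41.5% of groups at 0.226 per 10 kb, and inside groups of 2 or 3 at 0.179 per 10 kb. The nearest such region was a median of 11169 bp from a clustered region and 14307 bp from another active region. For poised enhancers these medians were 15019 and 14587 bp, and for regions with H3K4me3 only 70881 and 57931 bp. For regions with H3K4me1 only, outside the active and poised lists, they were 37981 and 40806 bp.

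The R1 tables compare H3K4 methylation on these regions between the catalytic-dead and the wild-type line. Scores in those tables ran through the chromosomes in number order and positions in text order, so the scores were first put back in step. Clustered regions overlapped R1 peaks more often than the others. An H3K4me1 peak lay on 86.4% (84.9 to 87.8) of clustered and 77.2% of other active regions. For H3K4me2 the shares were 58.8% and 49.6%. For H3K4me3 they were 27.9% and 20.8%, although all of these regions lack H3K4me3 in the 129/Ola table. An overlap of 1 bp was enough, and clustered regions were wider, with medians of 1126 and 577 bp. The part of width in these shares was not tested.

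H3K4me1 was lower in catalytic-dead cells on clustered regions, by a little less than on the others. Over 1986 peaks on clustered regions the median fold enrichment was 2.29 in catalytic-dead and 3.42 in wild-type cells, a median log2 ratio of -0.61 (-0.65 to -0.57). Over 8459 peaks on other active regions it was 2.02 in catalytic-dead and 3.30 in wild-type cells, a median log2 ratio of -0.76 (-0.78 to -0.74). Log2 ratios were below 0 at 83.0% of peaks on clustered and 82.7% of peaks on other active regions, against 55.2% of all H3K4me1 peaks. A ratio of 0.5 or below, the size at which the deposited table calls a peak decreased, was found at 581 peaks, 29.3% (27.3 to 31.3), on clustered regions and 38.5% on other active regions. Over all 82053 H3K4me1 peaks 28.4% were decreased, so the clustered share is near that of the whole table. A ratio of 2 or above was found at 0.504% of peaks on clustered regions and 1.02% on other active regions, against 15.2% of all H3K4me1 peaks. Over all H3K4me1 peaks the quartiles were 2.56 to 3.32 in wild-type and 1.44 to 4.13 in catalytic-dead cells. How the choice of peaks shaped the ratios was not tested.

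The H3K4me1 ratio was less negative in the largest groups than at single regions, though not at every step. Its median was -0.80 for single regions, -0.74 in groups of 2, -0.65 in groups of 3, -0.67 in groups of 4, -0.62 in groups of 5, -0.65 in groups of 6, -0.53 in groups of 7 and -0.45 in groups of 8 or more. In groups of 8 or more 23.6% of peaks were decreased. At distal peaks, which make up 87.6% of those on clustered regions, the medians were -0.65 on clustered and -0.80 on other active regions; at proximal peaks they were -0.36 and -0.39. The clustered median was the less negative one on 16 of 19 autosomes. The difference of 0.15 was 0.09 against groups of 2 or 3, 0.08 with the others weighted to the width of the clustered peaks, and 0.03 without the lowest 25% of all peaks. In the deposited layout of the scores it was -0.04.

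H3K4me2 was lower by more. Over 1452 peaks on clustered regions the median fold enrichment was 2.31 in catalytic-dead and 4.23 in wild-type cells, a median log2 ratio of -0.88 (-0.93 to -0.83). Over 5550 peaks on other active regions it was 2.12 in catalytic-dead and 4.25 in wild-type cells, a ratio of -1.0 (-1.03 to -0.96). Decreased peaks made up 43.5% (41.0 to 46.1) on clustered and 50.0% on other active regions, against 23.0% of all 53501 H3K4me2 peaks. None of the peaks on clustered regions and 9 on other active regions were increased, against 1.91% of all H3K4me2 peaks. The median was -1.01 for single regions, -0.93 in groups of 4, -0.97 in groups of 5, -0.91 in groups of 6, -0.85 in groups of 7 and -0.73 in groups of 8 or more, and less negative on clustered regions on 13 of 19 autosomes. At proximal peaks the order of the medians was turned round. It was -0.66 (-0.78 to -0.52) at 194 peaks on clustered and -0.55 (-0.64 to -0.48) at 763 on other active regions. These intervals overlap, and decreased peaks made up 32.0% and 33.8% of these proximal peaks. The difference of 0.12 was -0.04 without the lowest 25% of all peaks.

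H3K4me3 was about the same in both lines. The median log2 ratio was -0.09 (-0.15 to -0.04) over 690 peaks on clustered regions, with fold enrichments of 3.78 in catalytic-dead and 3.78 in wild-type cells, and -0.05 (-0.08 to -0.02) over 2288 peaks on other active regions. Decreased peaks made up 8.12% on clustered and 8.48% on other active regions, against 4.48% of all H3K4me3 peaks, and increased peaks 3.62% and 6.16%, against 3.15%. The clustered median was the less negative one on 7 of 19 autosomes.

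**Figure D4:**
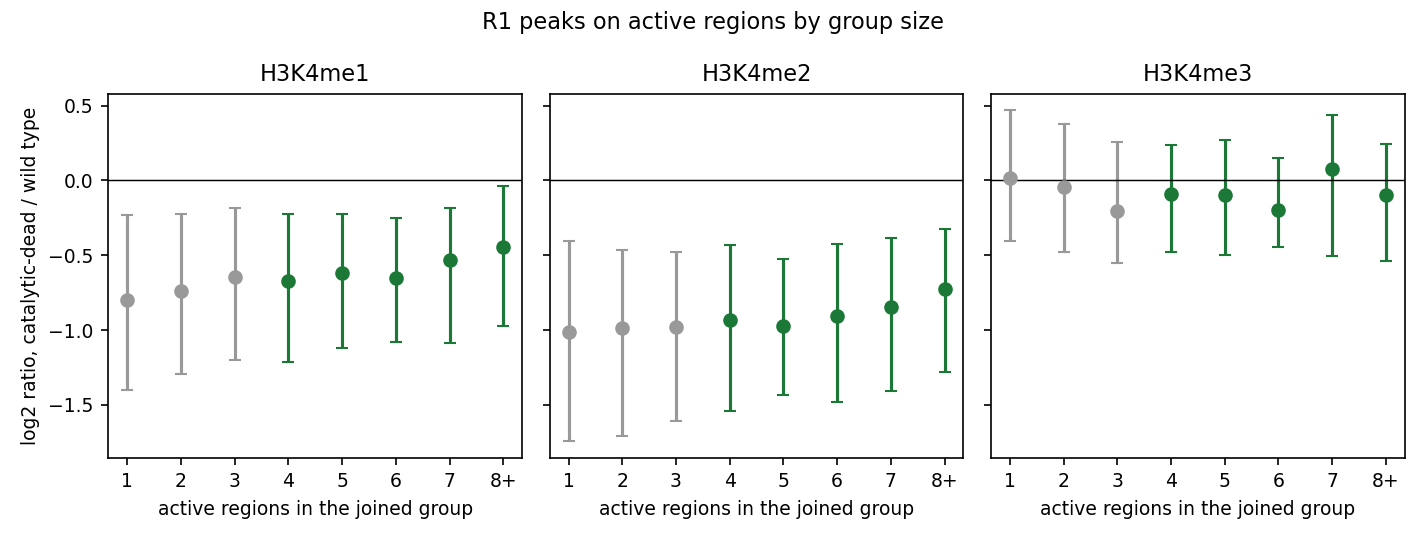
Log2 ratio of fold enrichment, catalytic-dead over wild-type R1 cells, at H3K4me1, H3K4me2 and H3K4me3 peaks on active regions, by the number of active regions in the joined group; points are medians and bars quartiles, green for clustered and grey for other active regions. H3K4me1 goes from -0.80 for single regions to -0.45 in groups of 8 or more, H3K4me2 from -1.01 to -0.73, and H3K4me3 stays near 0.

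Group medians among groups with 4 or more peaks ran from -2.08 to 0.52 for H3K4me1 and from -2.74 to 0.01 for H3K4me2. Of 293 groups with 4 or more H3K4me1 peaks, 274 had a median below 0, 63 one of -1 or below and 19 one above 0. In 131 groups every H3K4me1 peak was below 0, and in 8 every peak was decreased. Over all H3K4me1 peaks on clustered regions, 83.0% were below 0 and 29.3% decreased. Of 175 groups with 4 or more H3K4me2 peaks, 174 had a median below 0 and 72 one of -1 or below. Single H3K4me2 peaks were below 0 at 92.4% on clustered and 90.7% on other active regions, against 56.8% of all H3K4me2 peaks. Of 57 groups with 4 or more H3K4me3 peaks, 35 had a median below 0 and 22 one above. Single H3K4me3 peaks were below 0 at 56.4% on clustered and 52.8% on other active regions, against 53.7% of all H3K4me3 peaks. The intraclass correlation of the ratios was 0.24 (H3K4me1), 0.21 (H3K4me2) and 0.27 (H3K4me3), so most of the variance lay within groups. In groups of 2 or 3 it was 0.30, 0.22 and 0.15. Over the 161 groups with 4 or more peaks of both marks, Spearman's rho of the H3K4me1 and H3K4me2 medians was 0.71. This describes these tables only: both marks come from the same lines and positions and may share input libraries.

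**Figure D5:**
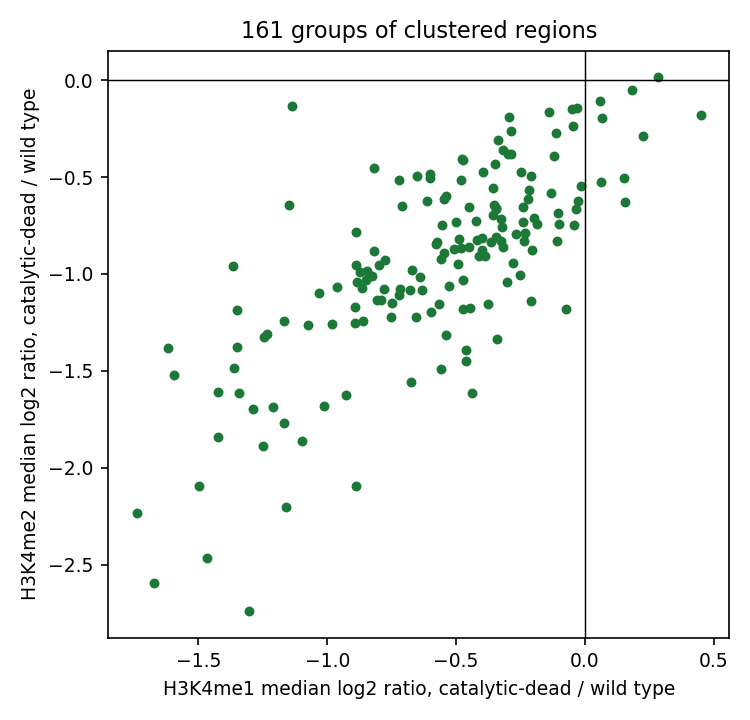
Median log2 ratio, catalytic-dead over wild-type R1 cells, of H3K4me1 (x) and H3K4me2 (y) in the 161 groups of clustered regions with 4 or more peaks of each mark; each point is a group. Nearly all points lie below 0 on the H3K4me2 axis, and groups low in one mark are low in the other (rho 0.71).

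The lowest H3K4me1 median was at chr19:53506438-53536390. Its 4 peaks had fold enrichments of 0.624 to 2.39 in catalytic-dead and 3.45 to 3.71 in wild-type cells, a median log2 ratio of -2.08. This group was picked for its low ratio, so the distance between the lines follows from the choice. Of the 4 peaks, 3 were decreased. At chr19:9101975-9133182 the median was -1.83 over 5 peaks, with 0.693 to 1.64 in catalytic-dead and 2.62 to 4.00 in wild-type cells. At chr11:114668877-114685943 it was -1.74 over 4 peaks, with H3K4me2 at -2.23. This group had 9.25 ± 2.63 factors per region. At the other end, chr9:20697503-20751423 had a median of 0.52 over 6 peaks that ranged from -1.36 to 0.93. The next highest were chr19:57427893-57450585 at 0.45 and chr5:149175289-149196648 at 0.28. In the last of these all 4 peaks were above 0, with 2.90 to 3.65 in catalytic-dead and 1.87 to 3.25 in wild-type cells.

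The lowest H3K4me2 median was at chr11:53592388-53618464, a group of 7 regions with MED1 and SRSF2 at each. Its 4 H3K4me2 peaks had fold enrichments of 0.275 to 0.843 in catalytic-dead and 3.0 to 3.62 in wild-type cells, a median log2 ratio of -2.74, and its 4 H3K4me1 peaks were all decreased. At chr7:152312785-152327521 all 4 H3K4me2 peaks and all 6 H3K4me1 peaks were decreased, with medians of -2.59 and -1.67. At chr1:121284522-121308077 the H3K4me2 median was -2.47, with 1 of its 4 peaks at 0.03. The highest H3K4me2 medians were 0.01 at chr5:149175289-149196648, -0.05 at chr11:69366283-69414607 and -0.11 in a group of 4 on chromosome 18.

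For H3K4me3 the lowest medians were -1.04 at chr2:156505939-156543878, -0.93 at chr2:162858958-162922014 and -0.90 at chr1:13059468-13108885. In the second of these, a group of 12 regions, the H3K4me1 median was -0.01 over 14 peaks and the H3K4me2 median -0.55 over 9. The highest were 0.86 at chr11:69366283-69414607, 0.76 at chr17:29187075-29219660 and 0.73 at chr13:53270348-53308509. At the group on chromosome 13 the 5 H3K4me3 peaks had 3.36 to 6.53 in catalytic-dead and 1.16 to 5.24 in wild-type cells, while its 10 H3K4me2 peaks had a median of -0.20.

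The H3K4me1 ratio of a clustered region differed with some of its factors. For 14 of 17 factors the median was lower at regions with the factor than at those without, and for 3 it was higher. The sign was the same among other active regions for 13 of the 17. The widest gap was that of BAF155, -0.78 at 380 clustered regions with it and -0.54 at 1530 without, a difference of -0.24 against -0.14 among the others. SMC3 had the widest gap in the other direction, -0.45 at 758 regions with it and -0.67 at 1152 without, a difference of 0.22 against 0.30 among the others. For H3K4me2, 9 of 17 factors had the lower median where listed, and the sign was the same among other active regions for 10 of the 17. SMC3 was at -0.74 with and -0.99 without, a difference of 0.25 against 0.28 among the others. PHF5A was at -0.62 with and -0.92 without, a difference of 0.30 against 0.24 among the others. By the number of factors, the H3K4me1 median was -0.47 at regions with 0 to 2 factors, -0.60 with 3 to 5, -0.65 with 6 to 9 and -0.66 with 10 or more. Spearman's rho of this number with the H3K4me1 ratio was weak, -0.085 on clustered and -0.0019 on other active regions. The H3K4me2 medians in the same classes were -0.90, -0.91, -0.87 and -0.74, with a rho of 0.027 on clustered and 0.10 on other active regions. For H3K4me3 rho was -0.11 and -0.02. Factors were measured in 129/Ola cells and the ratio in R1 cells, and the part of width in these gaps was not tested.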

How the data were processed

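Per the submitters' processing notes the build was mm9 and the tools included Bowtie, BWA 0.7.13-r1126, Picard and MACS2; their roles, and how libraries were pooled, are not stated there. Deposited by the authors were log2 enrichments per region and factor for 129/Ola cells and fold enrichment ratios per peak for the R1 lines. What they are relative to is not given. Of 31 names in the region table, 11 matched no 129/Ola library and were not used. The R1 score columns run through chromosomes in number order and positions in text order, so scores were put back in number order; outside chromosome 1, the rank correlation between the width and the wild-type enrichment of a peak was then 0.257 (H3K4me1), 0.677 (H3K4me2) and 0.688 (H3K4me3), against 0.0023, 0.020 and 0.016 as deposited and 0.215, 0.661 and 0.674 on chromosome 1, where both orders coincide. Values were computed with Python 3.11.15, pandas 2.3.3 and SciPy 1.17.1, in code checked on simulated data. A peak belonged to regions it overlapped by 1 bp or more, and to the clustered set where it touched any clustered region. No pseudocount was added to the ratios, but any catalytic-dead value of 0 was replaced by a value below the lowest positive one of that line. Medians have order-statistic intervals and shares exact Clopper-Pearson intervals. The text names all 17 factors, and of the groups the 5 with most regions, the 3 with the highest H3K27ac, the 3 with most and the 3 with fewest factors, and for each mark the 3 lowest and 3 highest medians among groups with 4 or more peaks. Members, lists and alternatives were chosen with earlier results of these data known. Region sequences and neighbouring genes were not used here.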

Additional observations from a re-analysis of the deposited data

How the results depend on the processing

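No paired analysis was possible because the tables hold 1 value per factor or line and no replicate values; leaving out replicates could not be run for the same reason. Differences are clustered minus other active regions. For H3K27ac it was 0.14 with a gap of 5000 bp, 0.072 with a gap of 25000 bp and, in a comparison chosen after seeing the data, 0.050 against groups of 2 or 3. The number of factors differed by 0.34 after weighting to width and by -0.32 with factors counted at a log2 enrichment of 1 or more. The factors with a higher share numbered 13 and 1 of 17 in those settings, and those with a lower level 5 of 17 after weighting to width. After weighting to width, the share differences were 1.34 percentage points for BAZ1A, 0.764 for MED1, 0.290 for MED12, 1.84 for PHF5A, 1.62 for SRSF1 and 0.352 for WSTF, all negative before. Counted at a log2 enrichment of 1 or more they were -1.12 for PHRF1, -1.75 for SAP18, -0.747 for SMC3, -0.912 for SNF2H, -2.76 for SRSF2 and -1.23 for SUR2, all positive before.

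For H3K4me1 the difference was 0.23 with a gap of 5000 bp, 0.034 without the lowest 25% of peaks, 0.092 with a pseudocount of 1 and -0.039 in the deposited layout of the scores. In comparisons chosen after seeing the data it was 0.087 against groups of 2 or 3 and 0.083 after weighting to peak width. For H3K4me2 it was 0.19 in groups of 6 or more and -0.038 without the lowest 25% of peaks. For H3K4me3 it was -0.13 in groups of 3 or more and 0.019 against groups of 2 or 3. The 25% filter uses the mean of both lines, a value that enters the ratio. In the deposited layout 10 of the 18 named group medians changed sign. For H3K4me1 they became 0.38 at chr19:9101975-9133182, 0.57 at chr11:114668877-114685943, -0.17 at chr9:20697503-20751423 and -1.21 at chr5:149175289-149196648. For H3K4me2 they became 0.21 at chr7:152312785-152327521, -1.43 at chr5:149175289-149196648, 0.25 at chr11:69366283-69414607 and 0.45 in the group on chromosome 18. For H3K4me3 they became -0.13 at chr11:69366283-69414607 and -0.17 at chr17:29187075-29219660. The cause of these moves was not tested.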
